A study of Mus musculus with 6 samples.

Results

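A set of 10 genes that mark hepatic stellate cells was followed in the livers of mice that had received rAAV8-Scramble or rAAV8-Hnf1aos1. The set was taken by symbol, 10 of the 40803 mouse genes in the count table, and it leaves the collagens out. It has 5 genes listed for the quiescent stellate cell (Lrat, Reln, Hgf, Ecm1 and Rgs5) and 5 genes listed for the activated cell (Acta2, Tagln, Des, Pdgfrb and Dcn). They were listed as known markers of the cell and not by a threshold on the comparison, although earlier results of these data were known, and 9 of the 10 had enough counts to be tested.

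The stellate cell is the pericyte of the liver sinusoid, lying between the hepatocytes and the endothelium. At rest it stores vitamin A as retinyl esters and secretes growth factors. After injury it can lose its droplets, take on features of a contractile myofibroblast and lay down matrix. The set lists its genes by these states, but Dcn, listed as activated, was the highest member in the rAAV8-Scramble livers. The names quiescent and activated are thus labels of the lists here, and the state of the cells was not measured.

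Both groups were male C57BL/6J mice injected at 6 weeks of age, and the liver was taken 4 weeks later from 3 mice of each group, with 1 library per mouse. The recombinant adeno-associated virus of serotype 8 carried, behind a U6 promoter, a hairpin against the lncRNA Hnf1aos1 in the rAAV8-Hnf1aos1 group or a scrambled hairpin in the rAAV8-Scramble group, and in both groups it also carried an EGFP reporter. The control mice thus shared virus, reporter and hairpin expression with the knockdown mice, and no library of uninjected mice was analysed here. This serotype transduces mainly hepatocytes, the RNA came from whole liver, and hairpin expression in stellate cells was not measured.

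The libraries held 14704746 to 19462398 counts over the mouse genes. Hnf1aos1 itself had normalized counts (raw counts divided by the scaled library size) of 512, 491 and 620 in rAAV8-Scramble replicates 1, 2 and 3 and of 278, 258 and 433 in rAAV8-Hnf1aos1 replicates 1, 2 and 3. Every knockdown library was thus below every control library, with a log2 fold change of -0.74 (SE 0.195, edgeR adjusted p = 0.0625). Spike-in transcripts took 1.38 to 1.52% of the counts in the rAAV8-Scramble libraries and 1.18 to 1.24% in the rAAV8-Hnf1aos1 libraries. Of 16327 genes tested, edgeR's quasi-likelihood test called 1032 at an adjusted p under 0.05, which is 6.32%, with 48.9% of the calls higher in the knockdown group. That share was 30.4% when libraries were scaled by their totals alone and 89.3% when they were scaled by the spike-ins. Of the 16327 genes, 505 were called higher in this test, 319 with library totals and 3030 with the spike-ins. Called lower were 527, 729 and 364. The calls of single lists under these scalings stand beside these counts over all genes.

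Acta2, Des and Tagln are members that muscle expresses too. Acta2 and Des gave the 2 lowest fold changes of the 9 members tested, and sequence from their start regions is shown first because it holds elements well known from muscle genes. The CArG box is the binding element of serum response factor, searched here as CC, 6 bases and GG with at most 1 of the 6 bases other than A or T. The E-box CAGCTG is bound by basic helix-loop-helix factors. The first 2 lines give 30 bases each around the CArG boxes of Acta2, at chr19:34255438-34255467 and chr19:34255388-34255417 on the minus strand, with the box in capitals. The third line gives the 250 bases before the RefSeq start of Des at chr1:75360042-75360291 on the plus strand, with CAGCTG in capitals. All are RefSeq sequences of GRCm38.p6, written 5′ to 3′.
Acta2 CArG, 84 to 75 bases before the start: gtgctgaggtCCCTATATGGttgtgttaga
Acta2 CArG, 34 to 25 bases before the start: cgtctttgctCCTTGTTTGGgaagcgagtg
Des start region: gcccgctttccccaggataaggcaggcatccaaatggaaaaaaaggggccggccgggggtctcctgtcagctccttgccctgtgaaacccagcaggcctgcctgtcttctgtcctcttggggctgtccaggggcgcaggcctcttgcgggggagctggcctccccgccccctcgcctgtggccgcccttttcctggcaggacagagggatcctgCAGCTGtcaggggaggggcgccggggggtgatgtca

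A start region was found for 7 of the 10 members, and those of Tagln, Pdgfrb and Dcn were not among them. Acta2 held both CArG boxes and a CAGCTG at 182 to 177 bases before its start, Des held its CAGCTG at 36 to 31 bases, and Lrat held a CArG match, CCAAGAAAGG, at 223 to 214 bases. Neither motif was in the windows of the other 4. On both strands, a CArG match stood in 8.59% and CAGCTG in 13.1% of 32536 mouse start regions of the same length. In the GENCODE annotation the Acta2 gene (chr19:34241090-34255590) begins upstream of the RefSeq start, so both boxes lie inside the annotated gene there. These are matches of letters, and binding was not measured.

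The levels per length, as the TPM values deposited, spanned a wide range. Dcn, a small leucine-rich proteoglycan of the matrix, was highest with 116 ± 14.1 TPM (SD, n = 3) in the rAAV8-Scramble group. Ecm1, a secreted matrix glycoprotein, followed with 84.1 ± 2.61 TPM. Rgs5, a regulator of G-protein signalling in pericytes, had 22 ± 1.40 TPM and Reln, the secreted glycoprotein reelin, had 21.5 ± 3.30 TPM, and the control libraries of these neighbours overlapped. Lrat, which esterifies retinol for storage, had 16.3 ± 1.22 TPM. Hgf, the growth factor for hepatocytes that signals through Met, had 11.1 ± 0.375 TPM.

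The other activated genes were lower. Des, the intermediate filament protein desmin, had 5.11 ± 1.23 TPM and Pdgfrb, the receptor for PDGF-B, had 4.54 ± 0.771 TPM, with overlapping control libraries. Acta2, the smooth muscle actin of myofibroblasts, had 3.21 ± 0.449 TPM. Tagln, the actin-binding protein transgelin, was last with 0.175 ± 0.0860 TPM. In the rAAV8-Scramble libraries each member from Dcn to Tagln was above the next without overlap, except for Rgs5 with Reln and Des with Pdgfrb. Pdgfrb was above Des in 4 of the 6 libraries, among them all 3 of the rAAV8-Hnf1aos1 group.

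**Figure D1:**
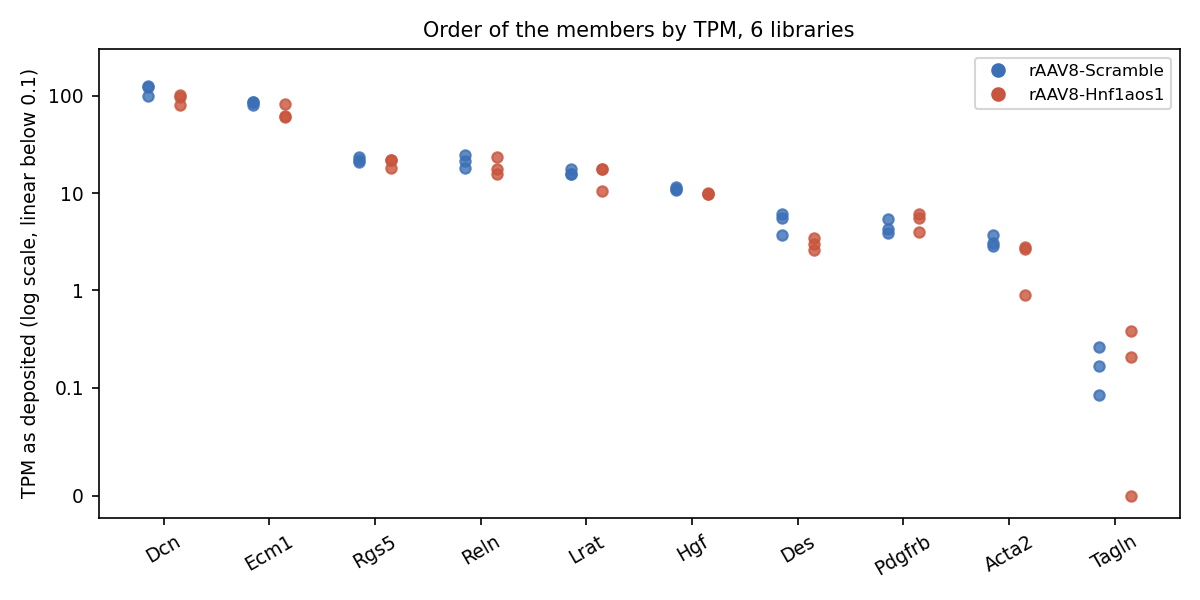
TPM as deposited (vertical axis, logarithmic above 0.1 and linear below) of the 10 stellate markers in the order of their rAAV8-Scramble mean, with 1 point per library. Dcn and Ecm1 stand above 60 TPM in all 6 libraries, and Tagln stays below 0.4 TPM.

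Of the 9 members tested 0 were called, against 6.32% of all genes tested (3.09% higher and 3.23% lower). At an unadjusted p under 0.05 there was 1, Des, which is 11.1% of the members against 23.4% of all genes, and DESeq2 and limma's voom also called 0 members. Of the 9 members, 1 had groups that did not overlap, again Des, against 28.9% of all genes tested (15.2% higher and 13.7% lower). In bulk liver, fewer cells of a type and less RNA per cell cannot be told apart, so the values below are levels in the whole tissue.

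The log2 fold change, rAAV8-Hnf1aos1 over rAAV8-Scramble, was below 0 for 8 of the 9 members, but for only 4 of the 9 when the libraries were scaled by the spike-ins, which shifted the median of all genes by 0.20. The median over the members was -0.11, beside a median of -0.00040 over all genes tested, of which 50.1% were below 0. Over the 5 quiescent members it was -0.10, and 0.10 with the spike-in scaling. For the 4 activated members tested it was -0.38, and -0.18 with the spike-in scaling.

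**Figure D2:**
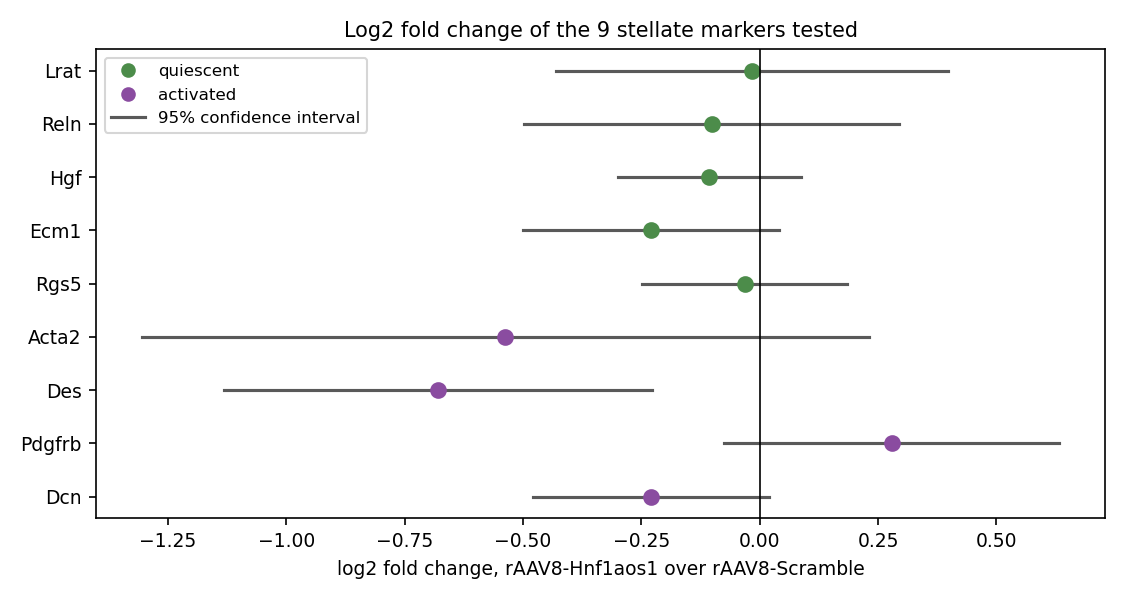
Log2 fold change of rAAV8-Hnf1aos1 over rAAV8-Scramble (horizontal axis) for the 9 members tested with edgeR, the line giving the 95% confidence interval. Only the interval of Des lies wholly below 0, and the interval of Acta2 is the widest.

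Among the quiescent members, those of the vitamin A store and of secreted signals come first. Lrat (chr3:82892579-82903973, minus strand of GRCm38, as for the genes below) had normalized counts of 652, 653 and 705 in rAAV8-Scramble replicates 1, 2 and 3 and of 741, 461 and 785 in the rAAV8-Hnf1aos1 replicates. The knockdown libraries lay on both sides of the controls, with replicate 2 the lowest of the 6 and replicate 3 the highest. The log2 fold change was -0.02 (SE 0.181, 95% confidence interval -0.43 to 0.40, edgeR adjusted p = 0.968), and without rAAV8-Hnf1aos1 replicate 2 it was 0.19.

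Reln (chr5:21884454-22344702, minus strand) had 1655, 2279 and 1864 normalized counts in the control replicates and 1615, 1515 and 2273 in the knockdown replicates. The groups overlapped over nearly their whole range. Its log2 fold change of -0.10 had an interval of -0.50 to 0.29 (SE 0.173, edgeR adjusted p = 0.775).

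For Hgf (chr5:16553495-16620152, plus strand) the normalized counts were 643, 625 and 576 in the rAAV8-Scramble libraries and 559, 579 and 576 in the rAAV8-Hnf1aos1 libraries. All 6 stood close together, and in the knockdown group only replicate 2 reached the lowest control. Hgf had a log2 fold change of -0.11 (SE 0.0881, 95% confidence interval -0.30 to 0.09, edgeR adjusted p = 0.501), the narrowest interval of the set. In the TPM as deposited the groups did not overlap, at 10.8 to 11.5 TPM in the controls and 9.72 to 9.98 TPM in the knockdown group.

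Ecm1 (chr3:95734147-95739569, minus strand) gave 1230, 1308 and 1247 normalized counts in the controls. The knockdown libraries gave 936, 978 and 1314, so that replicates 1 and 2 were below every control and replicate 3 was above every control. This gave a log2 fold change of -0.23 (SE 0.123, 95% confidence interval -0.50 to 0.04, edgeR adjusted p = 0.288). Without rAAV8-Hnf1aos1 replicate 3 it was -0.40 and passed the test (edgeR adjusted p = 0.0193). It was -0.15 without replicate 1 of that group and -0.03 with spike-in scaling (edgeR adjusted p = 0.910).

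Rgs5 (chr1:169655501-169695813, plus strand) had 742, 850 and 746 normalized counts in the rAAV8-Scramble libraries and 775, 692 and 819 in the rAAV8-Hnf1aos1 libraries. The groups overlapped, with a log2 fold change of -0.03 (SE 0.0986, 95% confidence interval -0.25 to 0.18, edgeR adjusted p = 0.882).

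The activated members begin with the contractile and cytoskeletal genes. Acta2 (chr19:34241090-34255590, minus strand) had raw counts of 61, 62 and 71 in the controls and of 61, 22 and 71 in the knockdown replicates. Its normalized counts were 62.6, 68.1 and 78.1 in the controls and 58.2, 20.9 and 64.3 in the knockdown replicates. rAAV8-Hnf1aos1 replicate 2 stood apart, and the exact 95% Poisson interval of its 22 counts, 13.8 to 33.3, which covers counting error only, did not reach the lowest interval of the other libraries, 46.7 to 78.4. The log2 fold change of Acta2 was -0.54 (SE 0.344, 95% confidence interval -1.30 to 0.23, edgeR adjusted p = 0.380), and -0.18 without that library. It was -0.81 without rAAV8-Hnf1aos1 replicate 3 and -0.33 with spike-in scaling.

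Tagln (chr9:45929619-45936058, minus strand) had raw counts of 2, 3 and 1 in the controls and of 5, 0 and 3 in the knockdown libraries, 14 in all. It did not pass the filter on low counts, and a difference was not detectable at this depth. The exact 95% Poisson interval of its 0 counts in rAAV8-Hnf1aos1 replicate 2 reached 3.69 counts. In the annotation, 1349 of its 1988 exonic bases, 67.9%, also lie in exons of Pcsk7 or Gm48529 on the other strand. The strand setting of the counting is not given in the sources used here, and the part of this overlap in the low counts was not tested.

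Des (chr1:75360329-75368579, plus strand) had normalized counts of 88.2, 145 and 128 in rAAV8-Scramble replicates 1, 2 and 3. The rAAV8-Hnf1aos1 libraries had 83.0, 66.5 and 75.2, all below the lowest control. Desmin thus had a log2 fold change of -0.68 (SE 0.206, 95% confidence interval -1.13 to -0.23, edgeR adjusted p = 0.0740) and missed the threshold. It passed when rAAV8-Scramble replicate 1, the lowest control, was left out (-0.86, edgeR adjusted p = 0.0357) and when no filter on low counts was used (edgeR adjusted p = 0.0149). Under the alternatives in which all 6 libraries were kept, its log2 fold change ran from -0.75 to -0.48. The weakest was spike-in scaling (edgeR adjusted p = 0.127). With a library left out it ran from -0.86 to -0.53, and the edgeR adjusted p from 0.0357 to 0.253, the latter without rAAV8-Scramble replicate 3.

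Pdgfrb was the only member tested whose fold change was above 0 with TMM scaling, and it also stood above 0 in every alternative. Its normalized counts were 186, 206 and 245 in the controls and 291, 281 and 201 in the knockdown replicates. Knockdown replicates 1 and 2 were above every control and replicate 3 lay among the controls. Its log2 fold change was 0.28 (SE 0.161, 95% confidence interval -0.07 to 0.63, edgeR adjusted p = 0.324). With spike-in scaling it was 0.48 (edgeR adjusted p = 0.0513), and it ran from 0.18 without rAAV8-Hnf1aos1 replicate 1 to 0.43 without replicate 3 of that group.

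Dcn (chr10:97479609-97518143, plus strand) had 1628, 2030 and 1957 normalized counts in the rAAV8-Scramble libraries and 1608, 1405 and 1776 in the rAAV8-Hnf1aos1 libraries. Knockdown replicates 1 and 2 were below every control. Decorin had a log2 fold change of -0.23 (SE 0.114, 95% confidence interval -0.48 to 0.02, edgeR adjusted p = 0.253). With spike-in scaling it was -0.03 (edgeR adjusted p = 0.894), and without rAAV8-Hnf1aos1 replicate 2 it was -0.14.

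**Figure D3:**
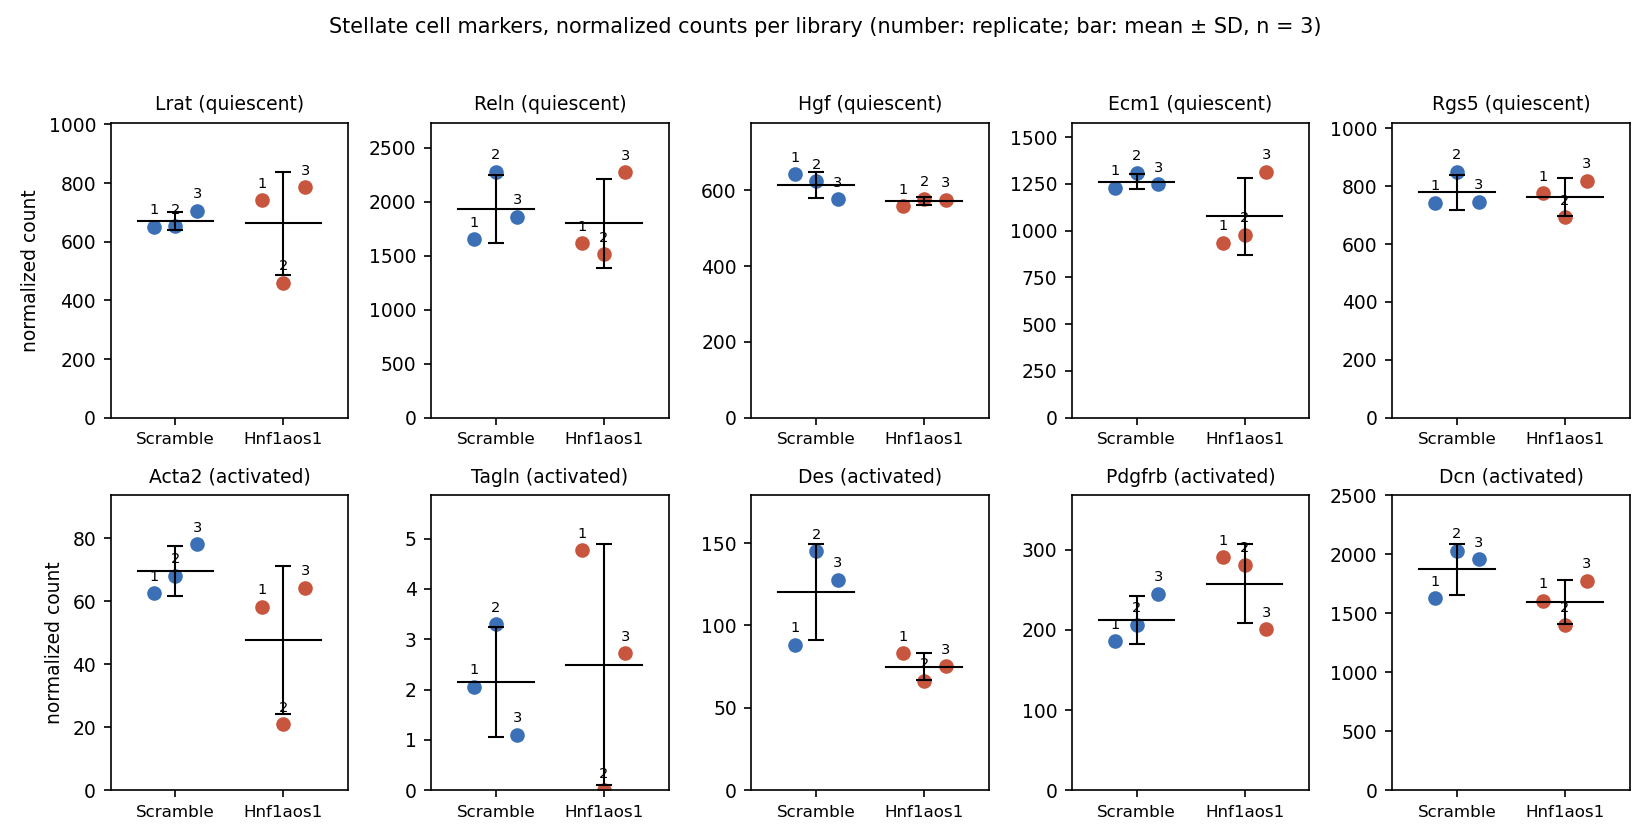
Normalized counts (vertical axis of each panel, starting at 0) of the 10 members in the 3 rAAV8-Scramble and the 3 rAAV8-Hnf1aos1 libraries, numbered by replicate, with the mean ± SD. The groups overlap for every member except Des, and rAAV8-Hnf1aos1 replicate 2 lies low for Lrat and Acta2.

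A single library gave many of the low values. rAAV8-Hnf1aos1 replicate 2 was the lowest of the 6 libraries in 6 of the 9 members tested, against 15.3% of all genes tested. rAAV8-Scramble replicate 2 was the highest in 4 of the 9, against 17.3% of all genes. The median over the members of log2 CPM minus the rAAV8-Scramble mean was -0.37 in rAAV8-Hnf1aos1 replicate 2, -0.21 in replicate 1 and -0.07 in replicate 3. Among the controls it was -0.14, 0.05 and 0.07, so knockdown replicate 3 lay within their range. Without rAAV8-Hnf1aos1 replicate 2, 5 of the 9 fold changes were below 0 and the median over the members was -0.11. Without rAAV8-Hnf1aos1 replicate 3 the median was -0.30.

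Summed over the 5 quiescent members, TPM were 147, 160 and 158 in the control replicates and 129, 114 and 155 in the knockdown replicates. The activated members summed to 110, 137 and 140 TPM in the controls and to 111, 89.7 and 113 TPM in the knockdown replicates. Both ranges overlapped between the groups. These sums were mostly a few abundant genes, since Ecm1 held 47.8 to 55.1% of the quiescent and Dcn 88.6 to 91.2% of the activated sum. The sum over the other 8 members was 76.9 to 88.7 TPM in the controls and 63.0 to 82.9 TPM in the knockdown group.

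The genes that followed each member most closely were sought among 132 tested genes of the other marker and pathway lists, by the mean absolute difference of centred log2 CPM over the 6 libraries. The closest matches were Timp3 to Dcn (0.0316) and Dhrs3 to Ecm1 (0.0317), beside medians of 0.237 and 0.270 over the genes compared. Timp3 is an inhibitor of metalloproteinases and had 442, 567 and 528 normalized counts in the controls and 458, 383 and 509 in the knockdown libraries. Dhrs3, a retinal reductase, had 2756, 2836 and 2802 against 1997, 2278 and 2918, with knockdown replicate 3 the highest of all as for Ecm1. The nearest gene to Reln was Ltbp4 (0.0584), to Hgf was Stab2 (0.0449), and to both Rgs5 (0.0543) and Lrat (0.119) was Tgfbr3. Pdgfrb stood nearest to Tgfb1 (0.102), Des to Mmp2 (0.126) and Acta2 to Tnc (0.265). Rgs5 and Hgf varied little, with mean absolute deviations of 0.0823 and 0.0652, so that a small difference says less for them. With only 6 libraries in 2 groups, and all genes read from the same libraries, these are descriptions of profiles.

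Other genes of the stellate cell gave a mixed picture. Of 20 further markers 19 were tested, and 1 was called, against 6.32% of all genes tested. This was Ednrb, the endothelin B receptor, which was lower, and the part of other cells in its values was not tested. Its normalized counts were 320, 341 and 354 in the controls and 223, 196 and 273 in the knockdown group. The log2 fold change was -0.55 (SE 0.132, edgeR adjusted p = 0.0342), and with spike-in scaling it was -0.35 and missed the threshold (edgeR adjusted p = 0.0926). Cygb, the globin that marks stellate cells in mouse liver, had 50.3, 50.5 and 52.8 normalized counts in the controls and 86.8, 94.1 and 69.7 in the knockdown group. These groups did not overlap, and the log2 fold change of 0.70 missed the threshold (SE 0.197, edgeR adjusted p = 0.0577). Colec11 at -0.12 (edgeR adjusted p = 0.726) and Hand2, a stellate transcription factor, at 0.25 (edgeR adjusted p = 0.640) had overlapping groups. The median over the 19 was -0.05 with 10 below 0, and with spike-in scaling it was 0.15 with 6 below 0. That scaling called 1 of them higher, Cygb, beside 3030 of all 16327 genes.

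Of the genes that handle retinoids, 0 of 11 tested were called by edgeR and 1 had an unadjusted p under 0.05. Spike-in scaling called 2 of them higher, beside 3030 of all 16327 genes. The receptor-like transporter gene Stra6l gave a log2 fold change of 0.18 (edgeR adjusted p = 0.219) and Rarb, a retinoic acid receptor, -0.13 (edgeR adjusted p = 0.700).

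The ligands and partners of the members were mostly below the threshold of the test. Of 5 genes of PDGF signalling 0 were called by edgeR and 0 had an unadjusted p under 0.05. Pdgfb, the ligand of Pdgfrb, was at -0.10 (edgeR adjusted p = 0.897), the other receptor Pdgfra at 0.14 (edgeR adjusted p = 0.512) and Pdgfa at -0.35 (edgeR adjusted p = 0.276). Of 6 genes of HGF signalling 0 were called and 2 had an unadjusted p under 0.05. The receptor Met was at 0.12 (edgeR adjusted p = 0.463), and the HGF-activating protease Hgfac at 0.13 (edgeR adjusted p = 0.397). The inhibitor Spint1, with 17.5 and 5.36 mean normalized counts in the 2 groups, was at -1.69 (SE 0.504, edgeR adjusted p = 0.0698), and the protease St14 at -0.93 (edgeR adjusted p = 0.145). The median over the 6 was -0.08, and with spike-in scaling it was 0.12. That scaling called 2 of them higher, Met and Hgfac, beside 3030 of all 16327 genes.

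Of 2 receptor genes of reelin that were tested, Vldlr was called lower. It had 108, 73.5 and 86.9 normalized counts in the controls and 17.2, 15.2 and 37.1 in the knockdown libraries, a log2 fold change of -1.94 (SE 0.321, edgeR adjusted p = 0.00903). Lrp8, the other receptor, was at 0.08 (edgeR adjusted p = 0.929), and Dab1, the adaptor inside the cell, was too low to be tested. Reln itself differed by less than the spread between libraries, as given above.

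TGF-beta is the main profibrotic signal to stellate cells. Of 18 genes of this pathway 0 were called by edgeR and 2 had an unadjusted p under 0.05, Smad3 at -0.37 (SE 0.113, edgeR adjusted p = 0.0784) and Tgfbr2 at 0.70 (SE 0.214, edgeR adjusted p = 0.103). Tgfb1 at 0.10 and Tgfbr1 at 0.24 had overlapping groups (edgeR adjusted p = 0.754 and 0.220). With spike-in scaling 12 of the 18 were above 0 and 2 were called higher, Tgfbr1 and Tgfbr2, beside 3030 of all 16327 genes. With library totals 1 was called lower, Smad3, beside 729 of all genes. Of the factors that act on CArG boxes 0 of 3 tested were called, 0 of them at an unadjusted p under 0.05, with Srf at 0.07, Mrtfa at 0.20 and Mrtfb at -0.04 (edgeR adjusted p = 0.757, 0.388 and 0.860). With spike-in scaling all 3 were above 0 and Mrtfa was called higher (0.40, edgeR adjusted p = 0.0465).

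Matrix turnover genes other than collagens had 11 of 15 tested below 0 (7 with spike-in scaling), with a median of -0.19 and 1 called. Postn, periostin, fell from 191 ± 14.5 to 134 ± 3.22 normalized counts (SD, n = 3; log2 fold change -0.51, edgeR adjusted p = 0.0398), a call that spike-in scaling lost (-0.31, edgeR adjusted p = 0.124). Mmp2, the gelatinase of stellate cells and fibroblasts, had 73.9, 90.0 and 109 against 58.2, 48.5 and 57.1 normalized counts without overlap (log2 fold change -0.73, SE 0.206, edgeR adjusted p = 0.0583). Timp2 was at -0.40 (edgeR adjusted p = 0.291). Timp1, a gene known to be induced in activated stellate cells, had 0 raw counts in all 3 controls and 10, 0 and 4 in the knockdown replicates and was not tested.

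Several members are made by other cells too, and markers of such cells are given beside them. The part of other cells in the values of the quiescent members was not tested. Des and Acta2 are also muscle genes. All 7 vascular smooth muscle markers tested were below 0 (6 with spike-in scaling) with a median of -0.40, and 1 was called, Pln, the phospholamban of muscle (-0.81, SE 0.197, edgeR adjusted p = 0.0398), or 2 with library totals. Myh11, the myosin of smooth muscle, was at -0.35 (edgeR adjusted p = 0.409), Smtn at -0.40 (edgeR adjusted p = 0.178) and Cnn1 was too low to be tested. The 10 markers of this list summed to 55.9 to 64.3 TPM in the controls and 40.5 to 43.6 TPM in the knockdown group. Most of this sum was Mylk and Pln, so it says little of the other markers. Mylk, named after its values were seen, had mean TPM of 38.8 in the controls and 29.5 in the knockdown group (edgeR adjusted p = 0.0933). Pln had 13.3 and 7.27.

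All 9 skeletal muscle markers were below 0, with spike-in scaling too, with a median of -1.35, and 1 was called, Actn3, the actinin of fast fibres (-1.95, SE 0.423, edgeR adjusted p = 0.0354). Ckm, Acta1 and Mylpf had overlapping groups at -1.28, -1.36 and -1.21 (edgeR adjusted p = 0.218, 0.333 and 0.203). Their sum was 63.8, 222 and 137 TPM in rAAV8-Scramble replicates 1, 2 and 3 and 72.5, 57.3 and 25.2 TPM in the rAAV8-Hnf1aos1 replicates. rAAV8-Scramble replicate 2 was the highest and rAAV8-Hnf1aos1 replicate 3 the lowest library in 9 of the 9. Des had the same order among the controls, replicate 2 over 3 over 1, whereas its lowest library was rAAV8-Hnf1aos1 replicate 2. Without rAAV8-Scramble replicate 2 the log2 fold change of Des was -0.53 (edgeR adjusted p = 0.221). The part of muscle RNA in the values of Des and Acta2 was not tested.

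**Figure D4:**
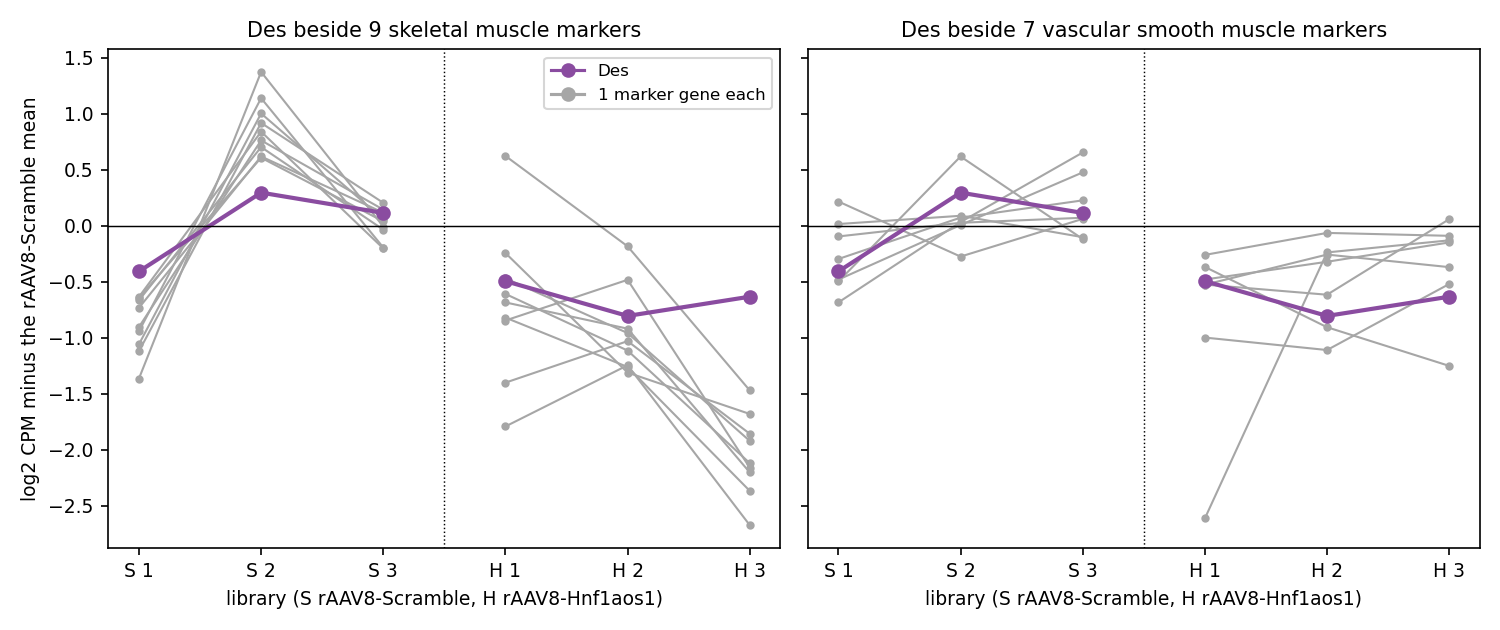
Log2 CPM minus the rAAV8-Scramble mean (vertical axis) in the 6 libraries (S, rAAV8-Scramble; H, rAAV8-Hnf1aos1), for Des in purple beside 9 skeletal muscle (left) and 7 vascular smooth muscle markers (right) in grey, with lines that only join the points of a gene within a group. All 9 skeletal muscle markers peak in rAAV8-Scramble replicate 2 and are lowest in rAAV8-Hnf1aos1 replicate 3, where Des is not.

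Portal fibroblasts also express Dcn, Pdgfrb and Acta2. Of 8 portal fibroblast markers tested 7 were below 0, with TMM and with spike-in scaling, with a median of -0.60, 0 were called by edgeR and 2 had an unadjusted p under 0.05. The smallest p was that of Cd34 (-1.02, SE 0.331, edgeR adjusted p = 0.0905), while Thy1 at -0.63, Eln at 0.04 and Fbln2 at -0.62 had adjusted p of 0.288, 0.944 and 0.188. Summed TPM were 14.9 to 27.1 in the controls and 13 to 14.7 in the knockdown group. Their part in the values of Dcn, Pdgfrb and Acta2 was not tested. Mesothelial markers were at low levels, with 2 of 5 tested, Upk3b at 0.73 and Gpm6a at 0.04 (edgeR adjusted p = 0.395 and 0.962), and Msln too low to be tested.

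The endothelial and Kupffer cells are the neighbours of the stellate cell in the sinusoid. Of 8 sinusoidal endothelial markers 0 were called by edgeR and 0 had an unadjusted p under 0.05, with a median of -0.07, or 0.13 with spike-in scaling, which called 1 higher. Stab2, a scavenger receptor, was at -0.18, Clec4g at -0.003, Lyve1 at 0.22 and Fcgr2b at -0.21 (edgeR adjusted p = 0.227, 0.994, 0.345 and 0.217). rAAV8-Hnf1aos1 replicate 2 was the lowest library in 6 of these 8, as it was in 6 of the 9 stellate members. All 10 Kupffer cell markers were above 0, under every scaling, with a median of 0.46. Of them 4 were called higher, 3 with DESeq2's size factors, 1 when scaled by library totals and 10 when scaled by the spike-ins. Over all 16327 genes the counts called higher in these settings were 505, 490, 319 and 3030. The 4 were Clec4f at 0.44, Adgre1 at 0.41, C1qa at 0.55 and C1qb at 0.46 (edgeR adjusted p = 0.0327, 0.0485, 0.0277 and 0.0458), while Cd5l at 0.78 missed the threshold (edgeR adjusted p = 0.0586).

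Cholangiocyte markers had 0 of 3 tested called by edgeR, 0 of them at an unadjusted p under 0.05, with Krt19 at -1.03 and Epcam at 0.35 (edgeR adjusted p = 0.374 and 0.855) and Krt7 too low to be tested. Hepatocyte markers had 0 of 6 called and 2 at an unadjusted p under 0.05, with Alb at 0.06, Ttr at 0.12 and Apoa1 at 0.41 (edgeR adjusted p = 0.841, 0.701 and 0.0581). Of these 6 markers 5 were above 0, and with spike-in scaling all 6 were above 0. That scaling called 3 of them higher, beside 3030 of all 16327 genes.

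**Figure D5:**
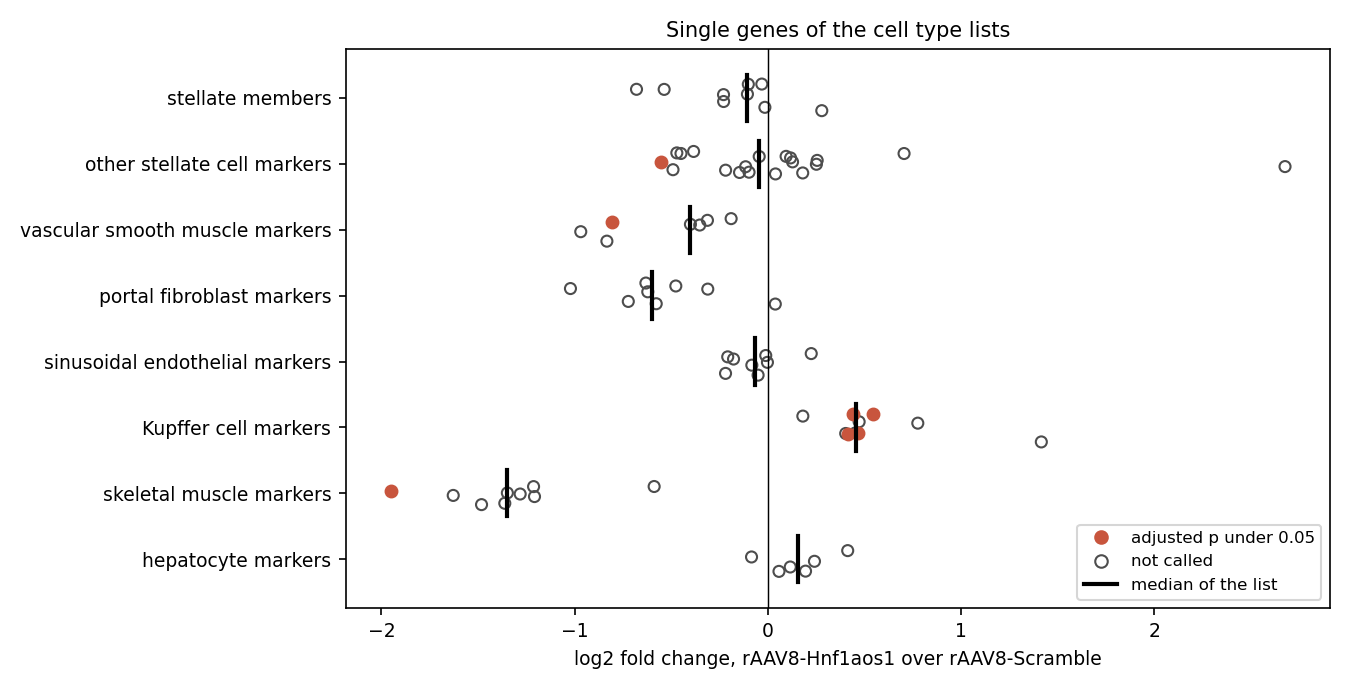
Log2 fold change of rAAV8-Hnf1aos1 over rAAV8-Scramble (horizontal axis) of the single genes of 8 cell type lists, filled where the edgeR adjusted p was under 0.05, with the median of each list as a bar and points spread vertically only to show them apart. None of the 9 stellate members is filled, their median is -0.11, and the 10 Kupffer cell markers all lie above 0.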

How the data were processed

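Liver RNA-seq of 6 mice was used, 3 per group of the sample labels, each library from its own mouse. The authors trimmed reads, aligned them with STAR to GRCm38 (the submitters' processing notes name GRCm39) and counted uniquely mapped exonic reads with featureCounts, and they deposited these raw counts and TPM values over the same rows, how the latter were computed not being given in the sources used here. The methods name a poly(A) kit that keeps the strand and the labels a depletion of ribosomal RNA. The authors' normalized counts and their table of fold changes and p-values were not used.

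All tests used the counts. The 92 ERCC spike-in rows were left out, which left 40803 genes, and no column was unassigned. In R 4.3.3, edgeR 4.0.16 scaled libraries by TMM, filtered with filterByExpr defaults, and fitted robust quasi-likelihood models on the group alone and adjusted p by Benjamini-Hochberg over 16327 genes, with calls at an adjusted p under 0.05. Normalized counts are counts over the TMM-scaled size relative to its mean, and log2 CPM used a prior count of 2. Gene totals of 14704746 to 19462398 leave Acta2, Des and Tagln with the least precision. Alternatives were DESeq2 1.42.0, its size factors in edgeR, library totals, spike-in sizes, no filter, a minimum mean of 50 counts, a replicate block, voom of limma 3.58.1, each library left out, and normalized counts in place of TPM for levels. The code was tested on simulated data. Pairs of libraries within a group differed by 7.73 to 31.9 per gene in chi-square, so none looked like a repeated library.

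The members and lists were chosen with earlier results of these data known. Named were all members, Hnf1aos1, the first 3 genes of each list, its called genes (at most 5) or its gene of smallest p, and each member's nearest gene, and others are said to be chosen later; 1 hepatocyte gene was not analysed here and 1 gene that the rule names is not reported here. Positions of transcripts come from GENCODE M21 (GRCm38), matched by symbol.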

Additional observations from a re-analysis of the deposited data

How the results depend on the processing

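Over all results and alternatives, 150 values kept their direction and side of the threshold or moved little. Of the others, 14 moved more, 10 reversed direction and 3 came to pass the threshold. A member that stayed uncalled with the same sign is among those kept. The count over all genes was 1032, and it was 3394 with library sizes from the spike-ins and 1902 with no filter on low counts. Leaving out 1 library gave 103 (without rAAV8-Scramble replicate 3) to 1881 (without rAAV8-Hnf1aos1 replicate 3). The count of members called was 0, and it was 1 with no filter and 0 to 1 with a library left out, being 1 without rAAV8-Scramble replicate 1 (Des, -0.86) and without rAAV8-Hnf1aos1 replicate 3 (Ecm1, -0.40). The members' median was 0.10 with spike-in sizes, and -0.30 to -0.10 with a library left out. Spike-in sizes turned Lrat (0.19), Reln (0.10), Hgf (0.10) and Rgs5 (0.17) above 0, where the median of all genes was 0.20. So did leaving out rAAV8-Scramble replicate 2 for Reln (0.03) and Rgs5 (0.03), rAAV8-Scramble replicate 3 for Lrat (0.02), and rAAV8-Hnf1aos1 replicate 2 for Lrat (0.19), Reln (0.01) and Rgs5 (0.04), none of them called. With a library left out, Lrat ran from -0.15 to 0.19, Reln from -0.30 to 0.029 and Rgs5 from -0.084 to 0.036. The cause was not tested. The ratio of group means of Hgf, the knockdown over the control group, was 0.929 in normalized counts and 0.882 in TPM.

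The replicate numbers do not pair the samples, since the deviations of same-numbered libraries correlated at -0.0226, 0.0231 and 0.00321 and 2 of 6 libraries correlated best with their own number. With the replicate block 878 genes and 0 members were called, and Des had an edgeR adjusted p of 0.122. Low counts limit Tagln, Acta2 and Des, with 14, 348 and 574 raw counts over the 6 libraries.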

Other observations

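Among the further stellate markers, 1 gene stood apart from the set in size, and it was chosen after its values were seen. Steap4, a metalloreductase, had normalized counts of 1606, 1701 and 1637 in the rAAV8-Scramble libraries and of 10357, 17992 and 3248 in the rAAV8-Hnf1aos1 libraries. The groups did not overlap, and the log2 fold change of 2.68 missed the threshold (SE 0.691, 95% confidence interval 0.82 to 4.53, edgeR adjusted p = 0.112). Its order among the knockdown libraries, replicate 2 over 1 over 3, was the reverse of the order of the members' median level there. Whole liver does not tell which cells gave the Steap4 counts, and the part of stellate cells in them was not tested. A few more markers were named after their values were seen, and of the 19 tested in this list 10 were below 0 and 9 above. Besides Ednrb, lower ones were Nes at -0.49, Vipr1 at -0.47, Vim at -0.45 and Lum at -0.38 (edgeR adjusted p = 0.223, 0.249, 0.253 and 0.220). The groups of Lum did not overlap. Lhx2, a stellate transcription factor, was at 0.04 (SE 0.214, edgeR adjusted p = 0.933) and Ngfr, a neurotrophin receptor, at 0.12 (SE 0.179, edgeR adjusted p = 0.743). Gfap, which marks stellate cells in several species, had 0, 3 and 6 raw counts in the controls and 5, 3 and 8 in the knockdown group and was not tested.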
